A study of Mus musculus with 6 samples.

Results

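Messenger RNA of 6 genes of heme metabolism was followed across the study's libraries. Hmox1 and Blvrb encode enzymes of heme breakdown, Alas1, Alad and Fech encode enzymes of heme synthesis, and Abcg2 encodes a membrane exporter of porphyrins and other substrates. They were taken by gene name, which gave 13 named transcripts, and each gene's level is the sum over its StringTie locus, which adds 2 unnamed transcripts. The 6 loci stand among 7171 in the table, and their 15 transcripts among 15113.

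The cells are C17.2, an established mouse neural stem cell line of CD1 x C57BL/6 strain origin. The control group was kept in growth medium, DMEM/F12 with fetal bovine serum. The heme group is labelled heme-treated, with no dose, duration or medium in the sources used here. The neural induction group was cultured in a Knockout DMEM medium with N2 supplement and brain-derived neurotrophic factor (BDNF) at 10 ng/ml, for a duration not given. The labels give 2 biological replicates a group without saying whether they came from separate cultures, so p-values may measure a technical spread. All groups are 1 immortal cell line, and no other line or primary cell was analysed here.

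Most cells make heme in a relay between mitochondrion and cytosol. Outside the erythroid lineage, where ALAS2 serves, ALAS1 starts it by joining glycine and succinyl-CoA, ALAD pairs the product into a pyrrole in the cytosol, and ferrochelatase (FECH) inserts iron into protoporphyrin IX back in the mitochondrion. Free heme is toxic, and heme oxygenase 1 (HMOX1) opens its ring to biliverdin, iron and carbon monoxide. Biliverdin is then reduced, in the adult mainly by BLVRA, and BLVRB is another biliverdin reductase. Heme is known to restrain ALAS1 and to induce HMOX1, the latter by releasing the repressor BACH1 so that NRF2 can act. ABCG2 marks many stem cells and carries protoporphyrin and drugs out of the cell.

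Levels are in FPKM, fragments scaled by transcript length and library size. Coverage divided by FPKM gave 1 constant for each of 5 libraries, equal to 4.14 to 4.56 mapped gigabases. For the second heme column this quotient varied from transcript to transcript. That column was the first heme column times a factor of 1.25 to 1.5 for each of 13963 transcripts, and the 1150 transcripts at 0 were at 0 in both. By contrast 1257 transcripts were at 0 in a single control column. Heme thus entered every main comparison as a single library, its first column, and the second column was used only in alternative runs. Neural progenitor markers Nes, Sox2 and Vim were listed, with a summed level of 809 to 949 FPKM, as were the neuronal genes Tubb3 and Map2 (21.8 to 32.6 FPKM summed). Msi1, Pax6, Dcx, Rbfox3 and all markers fixed for astrocytic (4 genes), erythroid (9) and microglial or macrophage (5) cells were not analysed here. Fewer cells of a type and less RNA per cell cannot be told apart in these bulk samples.

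Abcg2 and Blvrb each have listed transcripts from more than 1 start, and the use of these starts differed between libraries, so the promoter windows are shown first. At Abcg2, ENSMUST00000031822 starts 43889 bases upstream of the first of 3 transcripts whose starts lie within 22 bases of each other. At Blvrb, ENSMUST00000108357 starts 4440 bases downstream of ENSMUST00000037399. RefSeq windows on GRCm38.p6, from 250 bases before to 50 after a gene start, were found for 4 of the 6 genes (Abcg2, Blvrb, Alas1 and Alad). Those shown are, in order, chr6:58596422-58596721, chr6:58640296-58640595, chr7:27447728-27448027 and chr7:27452168-27452467, all on the plus strand. Capitals mark every match, on either strand, to 5 motifs.
Abcg2 upstream start: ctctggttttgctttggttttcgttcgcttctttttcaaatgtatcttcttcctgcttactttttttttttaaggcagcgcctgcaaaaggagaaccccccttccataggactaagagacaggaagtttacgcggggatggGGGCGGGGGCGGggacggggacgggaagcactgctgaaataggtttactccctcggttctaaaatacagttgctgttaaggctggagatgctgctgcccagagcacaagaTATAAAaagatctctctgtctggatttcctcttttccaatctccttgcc
Abcg2 downstream start: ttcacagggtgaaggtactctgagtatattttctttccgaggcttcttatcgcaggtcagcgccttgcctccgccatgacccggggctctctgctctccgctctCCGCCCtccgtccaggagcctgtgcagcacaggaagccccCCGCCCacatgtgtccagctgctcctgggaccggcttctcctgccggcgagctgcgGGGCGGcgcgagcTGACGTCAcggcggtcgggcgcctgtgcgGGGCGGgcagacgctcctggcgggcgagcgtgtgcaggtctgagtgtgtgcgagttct
Blvrb upstream start: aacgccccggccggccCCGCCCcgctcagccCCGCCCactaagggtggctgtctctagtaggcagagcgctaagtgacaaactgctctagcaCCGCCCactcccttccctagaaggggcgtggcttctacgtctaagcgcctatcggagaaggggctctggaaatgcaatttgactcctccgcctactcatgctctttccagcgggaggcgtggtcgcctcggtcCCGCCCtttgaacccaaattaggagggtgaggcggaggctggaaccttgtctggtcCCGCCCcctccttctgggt
Blvrb downstream start: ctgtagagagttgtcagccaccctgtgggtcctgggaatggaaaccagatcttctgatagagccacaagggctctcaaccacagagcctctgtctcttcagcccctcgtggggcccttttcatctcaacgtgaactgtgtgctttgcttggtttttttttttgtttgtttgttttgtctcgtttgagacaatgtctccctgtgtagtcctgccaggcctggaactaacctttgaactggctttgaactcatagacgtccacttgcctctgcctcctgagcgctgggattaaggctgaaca
The motifs searched were the antioxidant response element TGACNNNGC, the E-box CACGTG, the cyclic AMP response element TGACGTCA, the GC box GGGCGG and the TATA box TATAAA. The downstream Abcg2 window held 1 cyclic AMP response element, a motif in 1.79% of all 32817 windows of this length, and 4 GC boxes, a motif in 35.6% of windows. The upstream Abcg2 window held 2 GC boxes and 1 TATA box, which lies just after the listed start, a motif in 13.6% of windows. The upstream Blvrb window held 5 GC boxes, and none of the 5 motifs was in the downstream Blvrb window. No matches overlapped in these 4 windows. Antioxidant response elements (12.4% of windows) and E-boxes (7.15%) were in none of the 4.

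Heme breakdown came first in the size of its differences between libraries. The Hmox1 locus (chromosome 8, 75093591 to 75100596, GRCm38) was at 43.7 FPKM in control replicate 1, 222 in control replicate 2, 61.9 in the heme library, and 79.4 and 46.2 in neural induction replicates 1 and 2. The highest and the lowest value both belonged to control cultures, and the heme and induction libraries lay between them. Control replicate 2 was 5.09-fold above its sister control and 2.797-fold above the next highest library.

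Blvrb (chromosome 7, 27447978 to 27466144) was high in the same control library. Its locus was at 6.70 FPKM in control replicate 1, 16.9 in control replicate 2, 6.25 in the heme library, and 6.16 and 6.37 in the induction replicates. The 4 other libraries spanned only 6.16 to 6.70 FPKM, and control replicate 2 stood 2.52-fold above the next. Hmox1 and Blvrb were the only members at least 1.5-fold higher in control replicate 2 than in each other library, on FPKM + 1, which held for 1.58% of all 7039 loci tested. Against control replicate 1 alone the same 2 members passed that fold, as did 7.42% of loci. Control replicate 2 was the highest library for 3 of 6 members, Alas1 being the third, and for 28.2% of loci. Of the 7039 loci, 28 had a larger positive difference than Hmox1 between control replicate 2 and control replicate 1, and 179 a larger one than Blvrb.

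**Figure D1:**
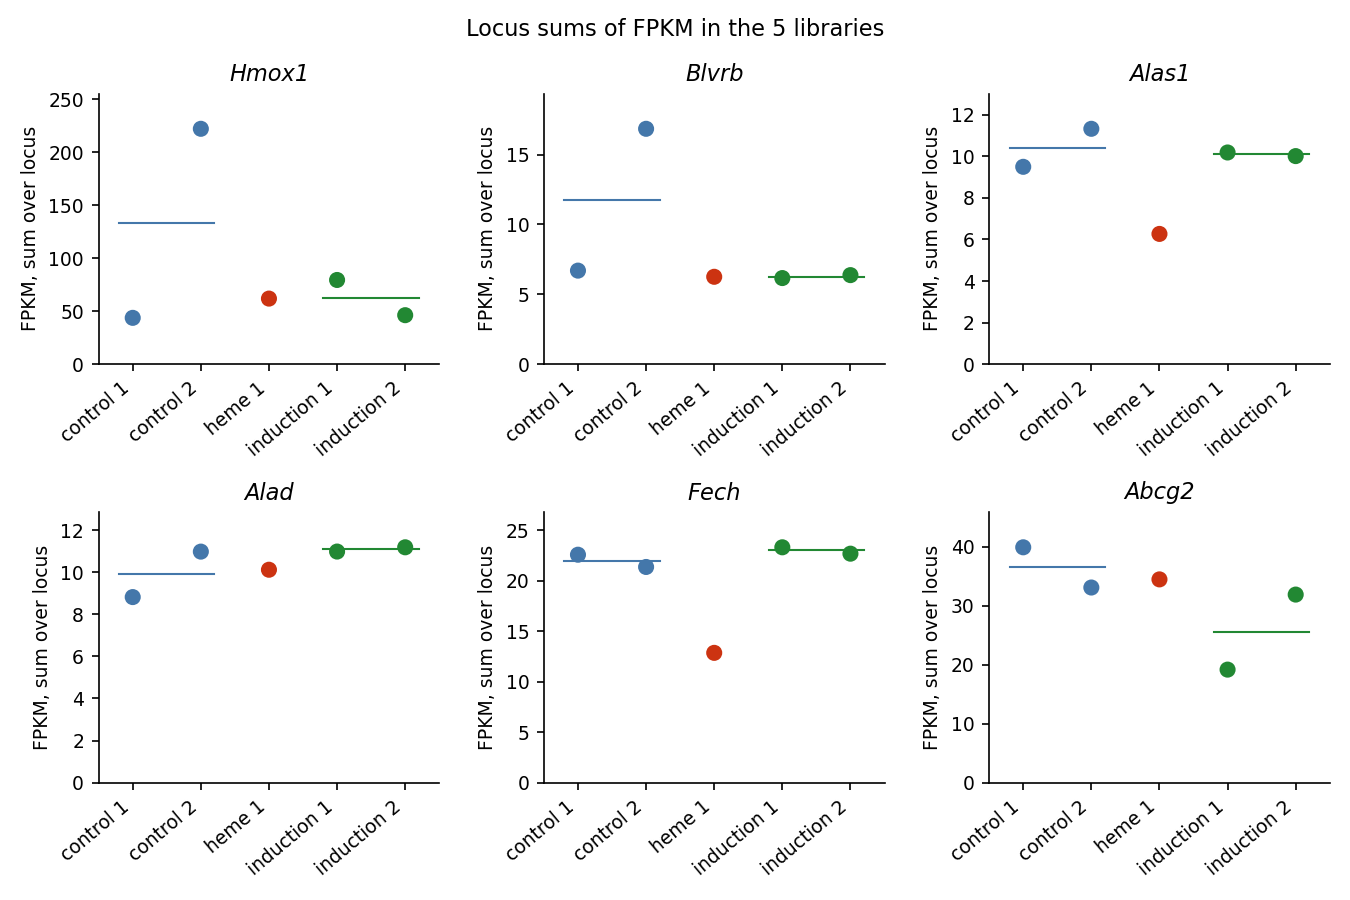
Locus sums of FPKM (vertical axis, from 0, scaled per gene) for the 6 genes in each of the 5 libraries. Points are libraries (blue control, red heme, green neural induction) and lines are means of 2 libraries. Hmox1 and Blvrb are highest in control replicate 2 (222 and 16.9 FPKM), while Alas1 and Fech are lowest in the heme library (6.27 and 12.9 FPKM).

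The heme comparison asks whether heme treatment changes these transcripts. The heme library lay below both controls for 3 of 6 members (Blvrb, Alas1 and Fech), against 31.1% of loci, and above both for 0 of 6, against 25.5%. Kilobases aligned per gigabase of library do not depend on which transcript a fragment was given to. On this measure the 3 below both controls were Alas1, Fech and Alad. Blvrb was at 6.43 in the heme library and 6.04 in control replicate 1. The share of all loci was not counted on this measure, so 31.1% is no background for it. On log2(FPKM + 1), limma put Hmox1 at -0.67 ± 1.00 (log2 fold change ± SE, adjusted p = 0.998) and Blvrb at -0.69 ± 0.53 (adjusted p = 0.998). Neither passed, and both values moved with the control library that stood apart. Without control replicate 2 Hmox1 was at 0.49, the opposite direction, and Blvrb at -0.085. Against control replicate 1 alone, the heme library held 1.42-fold more Hmox1 FPKM, and 435 of 7039 loci had a larger positive difference on FPKM + 1 in that pair.

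The neural induction comparison asks how culture in the induction medium changes them. Hmox1 was at -0.70 ± 0.82 on the log2 scale (limma, adjusted p = 0.935), and at 0.46 without control replicate 2. The induction replicates themselves were 1.72-fold apart. Hmox1 and Abcg2 were the 2 of 6 members at least 1.5-fold apart between induction replicates, against 11.4% of loci. Blvrb was at 6.27 ± 0.149 FPKM after induction (SD, n = 2) against 11.8 ± 7.18 in control (-0.69 ± 0.44, adjusted p = 0.935 in limma), and at -0.083 without control replicate 2. Both induction libraries lay below both controls for Blvrb in FPKM. In kilobases per gigabase they did not, with 6.34 in induction replicate 1 and 6.04 in control replicate 1.

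The 2 main Hmox1 transcripts, unlike the locus sum, separated the induction libraries from the other 3. ENSMUST00000005548, the annotated protein-coding transcript with 5 exons, was at 7.44 FPKM in control replicate 1, 38.3 in control replicate 2, 10.9 in the heme library, and 76.6 and 44.3 in the induction replicates. The unnamed transcript MSTRG.19925.2, also with 5 exons, was at 35.3, 179, 49.5, 1.80 and 1.31 FPKM in the same order. It held 80.8% of the locus in each control and 80.0% in the heme library, but 2.26% and 2.84% after induction, where ENSMUST00000005548 held 96.4% and 95.8%. The shares in both controls were alike although the locus sum differed 5.09-fold between them. ENSMUST00000005548 separated the libraries only narrowly, with 44.3 FPKM in induction replicate 2 and 38.3 in control replicate 2. The share of all transcripts separated in this way was not counted.

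In structure the unnamed transcript starts 50 bases later and ends 86 bases earlier than the deposited ENSMUST00000005548, yet is 21 bases longer. In net length it therefore exceeds the annotated exon chain, trimmed to those ends, by 157 exon bases. The table gives no exon coordinates, so where the 2 transcripts differ in the gene was not resolved. A shorter transcript, ENSMUST00000160341, with 2 exons and absent from GENCODE M21, stayed between 0.614 and 4.47 FPKM, at 1.33% to 2.42% of the locus.

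MSTRG.19925.2 was at -4.99 ± 0.83 on the log2 scale after induction (unadjusted p = 0.00378, adjusted p = 0.415 in limma over 13737 transcripts), and 0 of the 13 tested transcripts of the 6 genes passed, against a background of 0.00728% called. Over all transcripts limma called 1 here and 684 had an unadjusted p below 0.05. In limma ENSMUST00000005548 was at 1.70 ± 0.84 (adjusted p = 0.938), and at 2.81 without control replicate 2 and 0.59 without control replicate 1. For MSTRG.19925.2 these were -3.84 and -6.15. Hmox1 was the only one of 5 members with more than 1 listed transcript in which both controls shared a leading transcript and both induction libraries another. That pattern held for 4.52% of 3964 such loci, and for 0.832% with each leading transcript at 75% or more, as at Hmox1. Neither the leading-transcript rule nor the 75% cut was among the planned counts, and the cut lies below the Hmox1 shares. These percentages are therefore descriptive only.

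**Figure D2:**
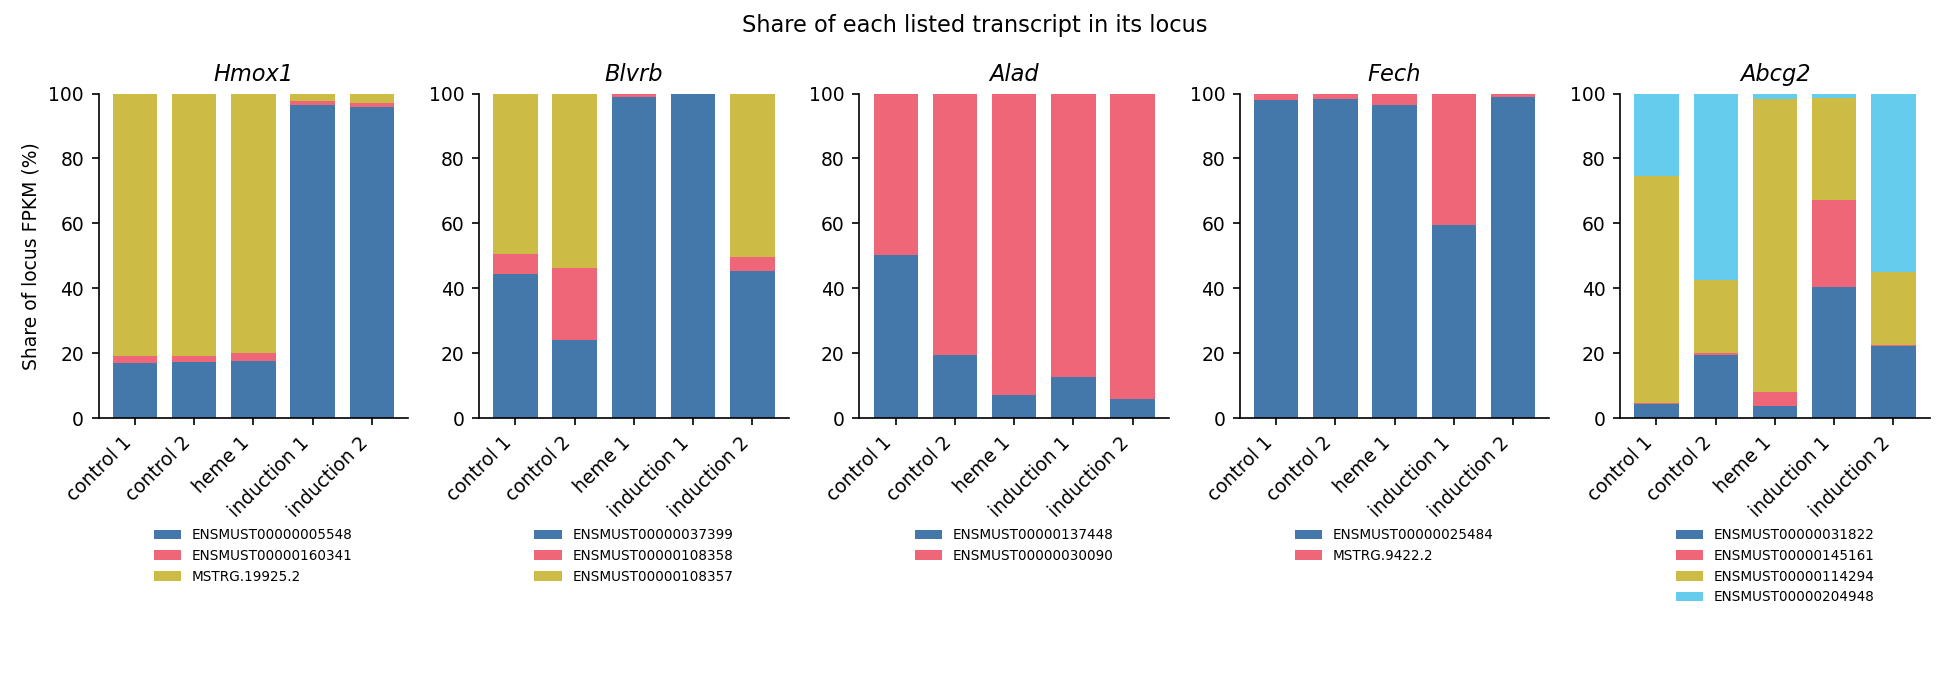
Share of the locus FPKM (vertical axis, percent) held by each listed transcript in each of the 5 libraries, for the 5 genes with more than 1 listed transcript. At Hmox1 MSTRG.19925.2 takes 80.0% to 80.8% in the control and heme libraries and 2.26% and 2.84% after neural induction, while Blvrb and Abcg2 also differ between replicates of 1 group.

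The authors' deposited table for neural induction gives a log2 fold change of 3.32 for ENSMUST00000005548 (p = 1.36e-15) and of -4.22 for MSTRG.19925.2 (p = 1.11e-09). The log2 ratios of the replicate 1 columns alone are 3.36 and -4.30. After Benjamini-Hochberg adjustment of the p-values in the authors' deposited table, 5 of the 15 member transcripts were below 0.05 for neural induction, against 7.2% of all transcripts. They were both of these Hmox1 transcripts, MSTRG.9422.2 of Fech, and ENSMUST00000114294 and ENSMUST00000204948 of Abcg2. In the authors' deposited table for heme 1 of 15 was below 0.05, ENSMUST00000204948 of Abcg2, against 7.24%. For these Hmox1 transcripts the values in the authors' deposited table lie within 0.1 of the replicate 1 ratios. For heme Alas1 was as close (-0.61 and -0.60), but ENSMUST00000108358 of Blvrb was not (-1.52 and -2.73). Where fold changes lie this close to 1 library per group, the p-values may not measure the spread between replicates.

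Blvrb transcripts varied within groups. ENSMUST00000108357, the transcript with the downstream start, was at 3.31 and 9.04 FPKM in the controls and 3.21 in induction replicate 2, but was listed at 0 in the heme library and in induction replicate 1. In those 2 libraries the upstream starts carried all of the locus FPKM, against 50.6% and 46.4% in the controls and 49.7% in induction replicate 2. The induction replicates thus differed from each other in the same way as heme from control, and the window of this downstream start is the one with no motif match above. ENSMUST00000037399 was at 2.98, 4.05, 6.19, 6.15 and 2.90 FPKM in the order of libraries used above. Blvrb was the only one of 5 members whose leading transcript was shared by the controls and another in the heme library, against 13.9% of loci. In control replicate 1 that lead was narrow, with ENSMUST00000108357 at 3.31 FPKM and ENSMUST00000037399 at 2.98. The locus rests on only 23.8 to 64.5 kilobases of aligned sequence per library, against 305 to 1552 for Hmox1.

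Among the enzymes of synthesis, Alas1 and Fech had their lowest FPKM sum in the heme library and Alad did not. Alas1, the rate-limiting first enzyme, has 1 listed transcript, ENSMUST00000141118 (chromosome 9, 106233458 to 106248126). It was at 9.499 and 11.3 FPKM in the controls, 6.27 in the heme library, and 10.2 and 10.0 after induction. The heme library was below all 4 others, at 60.2% of the control mean of 10.4 ± 1.29 FPKM (SD, n = 2). The antisense gene 4930500F10Rik overlaps this locus by 167 bases in GENCODE M21, and whether the counting used strand is not given in the sources used here.

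Fech, the iron-inserting last enzyme (chromosome 18, 64456550 to 64489066), was at 22.6 and 21.4 FPKM in the controls, 12.9 in the heme library, and 23.3 and 22.7 after induction. Control and induction libraries lay between 21.4 and 23.3 FPKM, and the heme library lay at 58.5% of the control mean of 21.96 ± 0.858 FPKM (SD, n = 2). Fech was the only member with the heme library at least 1.5-fold below each of the other 4, on FPKM + 1, as were 1.41% of all loci, or 2.95% against the controls alone. The heme library was the lowest of the 5 for 2 of 6 members, against 19.7% of loci.

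In limma Fech was at -0.73 ± 0.13 against control (log2 fold change, 95% interval -1.06 to -0.39, unadjusted p = 0.00307, adjusted p = 0.663) and ranked 32 of 7039 loci by p. Alas1 was at -0.65 ± 0.20 (95% interval -1.18 to -0.11, unadjusted p = 0.0270, adjusted p = 0.998). Neither passed. With the heme replicate 2 column in place of replicate 1, Fech was at 17.7 and Alas1 at 8.08 FPKM, below the other 4 libraries. That column is replicate 1 times a factor, 1.38 for Fech and 1.29 for Alas1, so it is no second check. The log2 fold changes of Fech and Alas1 were then -0.29 and -0.33, on a scale where the median of all loci moved to 0.43.

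Against neural induction the heme library differed in the same way, sharing the heme sample. Fech was at -0.79 ± 0.13 (adjusted p = 0.572 in limma) and Alas1 at -0.61 ± 0.20 (adjusted p = 1). The induction libraries lay between the controls for Alas1 and just above them for Fech, and both induction libraries exceeded both controls for 2 of 6 members (Fech and Alad), against 18.2% of loci. In kilobases per gigabase this held for neither, since Fech was at 64.9 in induction replicate 1 and 65.3 in control replicate 1, and Alad at 14.0 and 13.9 after induction and 14.4 in control replicate 2. Alas1 was at 10.1 ± 0.123 FPKM (SD, n = 2), a log2 fold change of -0.035 ± 0.16 in limma (95% interval -0.47 to 0.40, adjusted p = 0.987). Fech was at 23.0 ± 0.447 FPKM, or 0.063 ± 0.10 in limma (95% interval -0.21 to 0.34, adjusted p = 0.954).

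**Figure D3:**
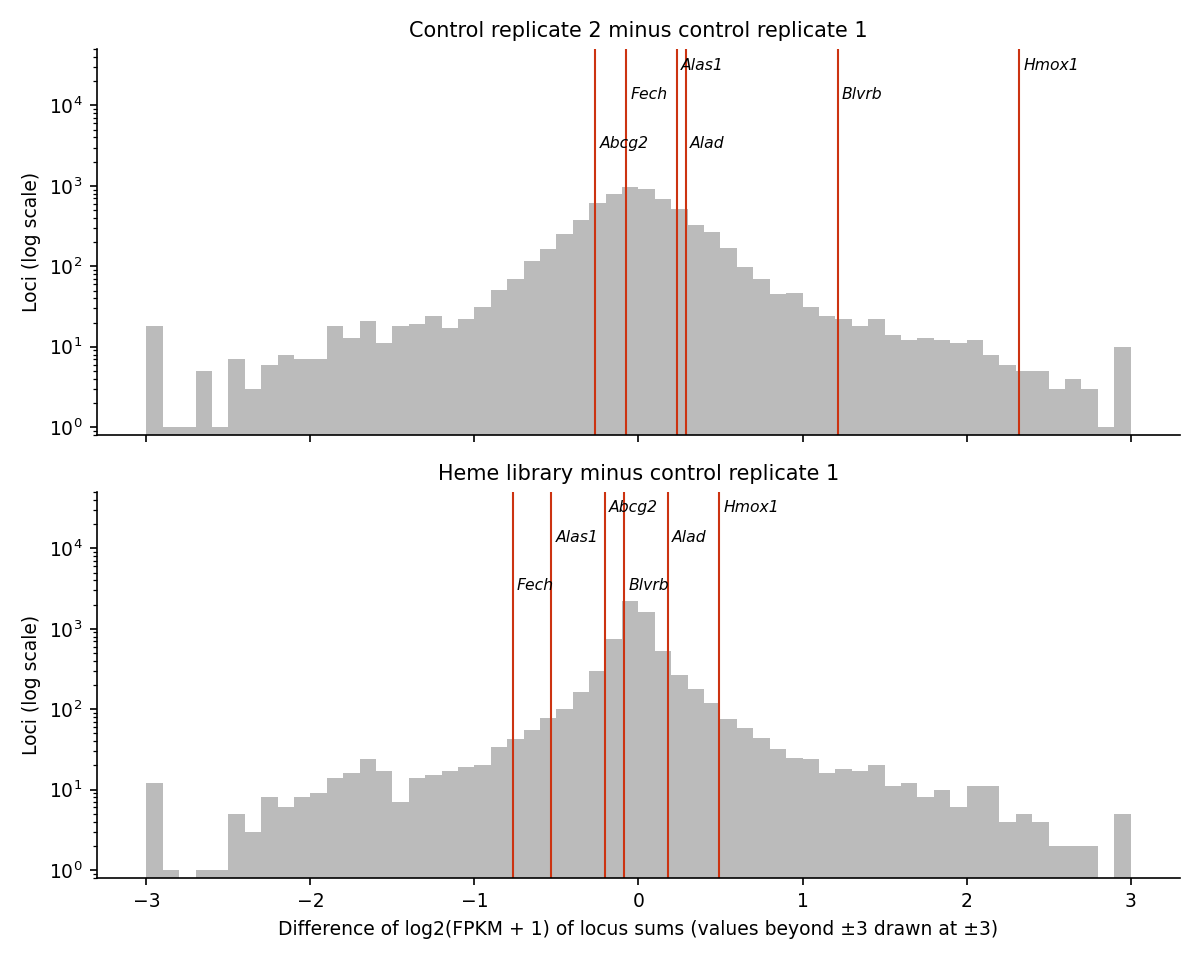
Difference in log2(FPKM + 1) of locus sums between 2 libraries (horizontal axis) over 7039 loci, with the number of loci on a log scale, and red lines at the 6 genes. Hmox1 and Blvrb lie far right between the controls (2.32 and 1.21), and Fech and Alas1 left of most loci for heme against control replicate 1 (-0.77 and -0.53).

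The deposited Fech transcripts differed in 1 induction library. ENSMUST00000025484, with 11 exons as deposited and 10 in GENCODE M21, was at 22.1, 21.003, 12.4, 13.9 and 22.4 FPKM. The unnamed MSTRG.9422.2, with 10 exons, was at 0.447, 0.352, 0.467, 9.42 and 0.250. In induction replicate 1 the unnamed transcript held 40.4% of the locus, against 1.10% to 3.64% in the other libraries. The sum was the same there as in induction replicate 2 to within 1.03-fold, and only the heme library had a low sum.

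Alad (chromosome 4, 62509169 to 62519918), which makes porphobilinogen, was the steadiest member. Its locus was at 8.82 and 10.98 FPKM in the controls, 10.1 in the heme library, and 10.99 and 11.2 after induction, a range of 1.27-fold. The log2 fold change was 0.036 ± 0.20 for heme (95% interval -0.50 to 0.58, adjusted p = 0.998 in limma) and 0.16 ± 0.17 for induction (95% interval -0.29 to 0.60, adjusted p = 0.935). The induction value was 0.012 without control replicate 1 and 0.30 without control replicate 2. In kilobases per gigabase Alad too was lowest in the heme library, at 12.6 against 13.1 to 14.4, and its log2 fold change for heme was -0.11 with 1 fixed length given to all transcripts of a locus. ENSMUST00000137448, annotated as a processed transcript, held 50.2% of the locus in control replicate 1, 19.4% in control replicate 2, 7.30% in the heme library, and 12.7% and 5.96% after induction. The protein-coding ENSMUST00000030090 was accordingly lowest in control replicate 1, at 4.40 FPKM, against 8.85 to 10.5 in the other 4 libraries.

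Abcg2 (chromosome 6, 58596671 to 58695676) was at 39.9 and 33.1 FPKM in the controls, 34.5 in the heme library, and 19.2 and 31.9 after induction. In FPKM both induction libraries were below both controls, a pattern held by 2 of 6 members (Abcg2 and Blvrb) and 13% of loci. The induction replicates were 1.66-fold apart, and the log2 fold change of -0.54 ± 0.27 did not pass (adjusted p = 0.935 in limma). It was -0.18 without induction replicate 1 and -0.89 without induction replicate 2. For heme it was -0.074 ± 0.33 (95% interval -0.94 to 0.79, adjusted p = 0.998).

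A sum of FPKM over transcripts of unlike length depends on which transcript the fragments were given to. The 4 Abcg2 transcripts are 603 to 5717 bases long. As kilobases aligned per gigabase of library the Abcg2 locus was at 77.9 and 65.8 in the controls, 76.5 in the heme library, and 60.8 and 68.0 after induction. Induction replicate 2 was then above control replicate 2, so the groups overlapped. The 5 libraries spanned 1.28-fold, where the FPKM sums had 2.08-fold. At 1 fixed length per locus, chosen after seeing the data, the log2 fold change for induction was -0.15 (adjusted p = 0.932 in limma). For Fech the fixed length gave -0.73 for heme (adjusted p = 0.459), and for Hmox1 the kilobases per gigabase ranged 5.09-fold, as the FPKM did.

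The upstream Abcg2 start, whose window holds the TATA box, gave 1.78 and 6.43 FPKM in the controls, 1.31 in the heme library, and 7.78 and 7.13 after induction. These were 4.46%, 19.4%, 3.80%, 40.6% and 22.3% of the locus. Both induction libraries were above both controls, narrowly above control replicate 2, and the share of all transcripts with this pattern was not counted. In limma the transcript was at 0.89 ± 0.65 on the log2 scale (adjusted p = 0.938). Of the downstream transcripts, the 16-exon ENSMUST00000114294 was at 28.0, 7.47, 31.1, 5.98 and 7.13 FPKM, and the 6-exon ENSMUST00000204948 at 10.1, 19.0, 0.579, 0.293 and 17.5. High values of the former were found in control replicate 1 and the heme library only, so the controls did not share a leading transcript. That held for 2 of 5 members, Abcg2 and Alad, and for 33.1% of loci with at least 2 listed transcripts.

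In all, limma called 0 of 6 locus sums for heme (background 0.0426% of 7039 loci, 253 at an unadjusted p below 0.05, 2 of them members), 0 of 6 for neural induction (0.0142%, 215, 0 members) and 0 of 6 for heme against induction (0.0568%, 238, 2 members). Among the 13 tested member transcripts it called 0 for heme (0.0728%) and 0 for heme against induction (0.0801%). The median log2 fold change of the 6 sums was -0.66 for heme against -0.0035 over all loci, and -0.29 against 0.019 for induction, where Hmox1 and Blvrb carry the value of control replicate 2. Heme rests on 1 library, which the fit assumes to vary like the others.

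**Figure D4:**
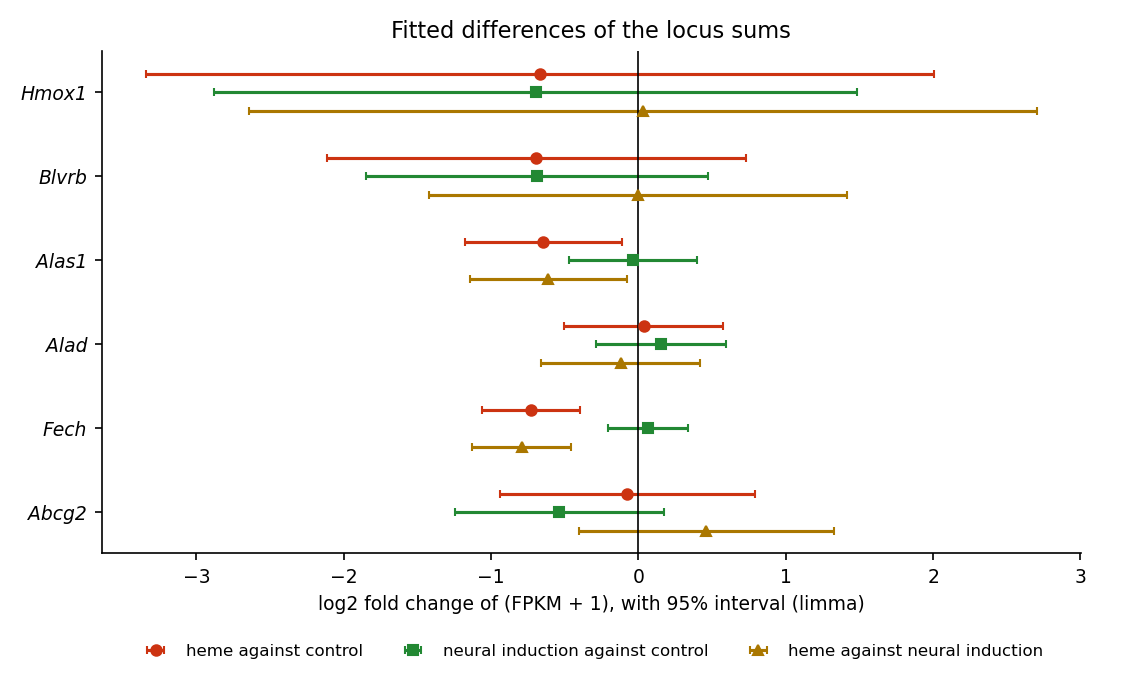
Log2 fold change of (FPKM + 1) of the locus sums (horizontal axis) with 95% intervals from limma for the 3 comparisons, by gene. Intervals of Hmox1 are widest (-3.34 to 2.01 for heme), and those of Fech for heme (-1.06 to -0.39) and Alas1 for heme (-1.18 to -0.11) lie below 0, although neither gene passed adjustment.

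The rest of the pathway was read from lists of 35 further genes, of which 18 are in the table, each at 1 locus. In limma 0 of these 18 passed in any comparison. Of heme synthesis 2 of 5 were listed, the middle enzymes Urod (5.82 to 10.1 FPKM) and Cpox (29.3 to 34.1), with a median log2 fold change of -0.091 for heme and 0.012 for induction. Alas2, Uros and Ppox were not analysed here. Urod was lowest and highest in the induction replicates. Cpox was at 29.3 FPKM in the heme library and 29.7 in control replicate 1, so it was lowest in heme by far less than Alas1 and Fech were.

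Both other breakdown enzymes were listed. Hmox2, the constitutive heme oxygenase, was at 5.34 and 6.88 FPKM in the controls, 2.65 in the heme library, and 10.5 and 8.93 after induction. The heme library was below both controls and both induction libraries above them, patterns held singly by 31.1% and 18.2% of loci, with a log2 fold change of -0.95 ± 0.27 for heme (adjusted p = 0.989 in limma) and 0.59 ± 0.22 for induction (adjusted p = 0.935). Blvra, the main adult biliverdin reductase, was at 13.1 to 15.4 FPKM, with 0 calls.

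Of transport genes 3 of 13 were listed. Slc48a1 encodes a heme transporter of the lysosome. Its FPKM was 52.8 in control replicate 1, 86.3 in control replicate 2, 59.0 in the heme library, and 65.3 and 52.6 after induction. Slc48a1 too was highest in control replicate 2. Slc25a39 (97.9 to 116 FPKM) and Abcb8 (4.32 to 7.40) were the others. Of heme binding and enzyme turnover 5 of 6 were listed, among them Clpx and Lonp1, which encode a mitochondrial unfoldase and a protease that act on ALAS1, at 8.96 to 10.5 and 49.1 to 54.8 FPKM, and Pgrmc1, a heme-binding membrane protein, at 80.3 to 104. Hebp1 was at 7.90 to 11.4 and Pgrmc2 at 26.8 to 29.7.

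Of heme sensing and transcription control 6 of 9 were listed, and all 6 had negative log2 fold changes in both the heme and the induction comparison, which share the controls (medians -0.11 and -0.40). Over all loci 49.2% had a positive value for heme and 54.7% for induction. For 4 of the 6 (Mafg, Maff, Mafk and Nr1d1) the heme library was above control replicate 1, so their negative heme values hold only with control replicate 2. Control replicate 2 was the highest library for 5 of them. Nfe2l2, which encodes NRF2, was at 45.1 to 48.1 FPKM, with 48.0 and 48.1 in the controls. NRF2 protein and its activity were not measured here. The small MAF partner Maff was at 8.84 and 16.0 FPKM in the controls and 6.74 to 10.0 elsewhere. Mafk (22.2 to 30.4), Nr1d1 (19.0 to 25.4), Mafg at a locus shared with Sirt7 (6.90 to 23.2) and Keap1 (1.59 to 4.68), the NRF2 adaptor, completed the list, and Bach1 was not analysed here.

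Profiles like those of the members were sought among 5569 named loci with a mean of at least 5 FPKM, by the distance between log2(FPKM + 1) values centred on their mean over the 5 libraries. Nearest to Hmox1 were Mt1 (distance 0.492), a metallothionein gene, Cox17 (0.657), a copper chaperone gene, and Gm11226 (0.706). Mt1 was at 186 FPKM in control replicate 2 and at 43.9 to 54.5 in the other libraries. Nearest to Blvrb were Ces1g (0.115), Hoxb9 (0.147) and Bnip3 (0.169), with Bnip3 at 56.2 FPKM in control replicate 2 and 23.6 to 26.0 elsewhere.

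Nearest to Fech were Bcap29 (0.120), Srp14 (0.140) and Mrps12 (0.142). Srp14, of the signal recognition particle, was at 59.1 FPKM in the heme library and 94.5 to 101 elsewhere. Nearest to Alas1 were Cdc42se1 (0.131), Epm2aip1 (0.138) and Mfap3l (0.138), all lowest in the heme library. Abcg2 was nearest to Zswim6 (0.187), Amot (0.200) and Elf4 (0.211), which were lowest in induction replicate 1, and Alad to Epb41l4aos (0.0468), Rps12-ps9 (0.0591) and Gmpr2 (0.0596).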

How the data were processed

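The submitters' processing notes name HISAT2, StringTie, edgeR and GRCm38 (mm10), and give no versions. For every assembled transcript the authors deposited an FPKM and a coverage value (signal, mean depth per base) in each library, per the file headers. Their 2 deposited comparison tables give, per the file headers, log2 fold changes, log2 abundances, a test score and a p-value. How transcripts were selected for the table is not given in the sources used here. FPKM was summed over the listed transcripts of each locus. Tests used limma 3.58.1 in R 4.3.3 (eBayes with intensity trend) on log2(FPKM + 1), for features with at least 1 FPKM in at least 2 of 5 libraries in 3 groups, with 2 residual degrees of freedom, two-sided, Benjamini-Hochberg adjusted over all features, at a threshold of 0.05. Fold changes on this scale understate those of low features. The fit was tested on simulated data with equal noise in all features, which does not cover a control library that stands apart. Depth per library limits precision, but without read counts no counting interval can be given. Coordinates are those deposited. GENCODE M21 (GRCm38) held 12 of the 15 member transcripts by identifier, and deposited lengths differ from it at Hmox1, Fech and Alas1. Promoter windows are RefSeq's. Members were named whatever their test, other pathway genes by list, and the 3 nearest profiles per member by distance. The members and lists were chosen with earlier results of these data known, and some pathway genes are not reported here. Alternatives were the pseudocount (0.1), 2 filters, median scaling, the heme columns, a replicate block, the intensity trend, leaving out each library, and 1 length per locus, added after seeing the data.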

Additional observations from a re-analysis of the deposited data

How the results depend on the processing

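Among the locus sums of the 6 genes none passed under any alternative run, so no call was gained or lost, and the signs of Fech and Alas1 for heme held in all of them. The low values of both genes in the heme library rest on that 1 library. Depth is 4.14 to 4.56 gigabases per library, and no counting interval can be drawn from FPKM.

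Leaving out 1 library gave 0 to 3 calls among locus sums for heme, 0 to 1 for neural induction and 0 to 4 for heme against induction, and 0 to 9 (heme, 10 with all 5), 0 to 1 and 0 to 12 (11 with all) among transcripts. Without any 1 control or induction library every count was 0, and the other end of each range has heme replicate 2 in place of replicate 1. With both heme columns as 2 samples limma called 207, 51 and 210 locus sums and 417, 86 and 432 transcripts. The second column is a near copy of the first, so these counts do not rest on a second heme sample. Why they rose was not tested. MSTRG.19925.2 of Hmox1 then passed for induction (-4.99, adjusted p = 0.0466) and for heme against induction (4.47, adjusted p = 0.0264), and 1 other heme pathway gene passed there. Without the intensity trend limma called 27 locus sums for induction, and 0 transcripts in each comparison. A pseudocount of 0.1 gave 0 locus sums for induction, as did no filter and the filter in 1 library, and both filters gave 6 transcripts for heme and 0 for induction.

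With the replicate block limma called 4, 2 and 6 locus sums and 0 transcripts in each comparison. Same-numbered control and induction libraries did not deviate together (correlation across loci -0.05). With so few libraries, this correlation cannot decide whether same-numbered libraries shared a culture or batch, and the labels do not say.

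Reversals of sign, none past the threshold, were these. Hmox1 without control replicate 2 was at 0.49 for heme and 0.46 for induction, from a low of -1.83 and -1.86 without control replicate 1. Its transcripts ranged from -1.72 to 0.49 (ENSMUST00000005548) and -1.84 to 0.48 (MSTRG.19925.2) for heme. For heme against induction the Hmox1 sum ranged from -0.36 to 0.41 over left-out libraries, and Blvrb from -0.024 to 0.42. Blvrb was there at 0.013 with median scaling, 0.21 with both heme columns, 0.23 with their mean, 0.31 with the replicate block and 0.079 at 1 length per locus. Alad was there at 0.12 with both heme columns and 0.13 with their mean, and ranged from -0.13 to 0.35. For heme, Alad ranged from -0.11 to 0.51 over left-out libraries and was at -0.11 at 1 length per locus. Abcg2 for heme ranged from -0.21 to 0.34, and was at 0.13 with both heme columns, 0.15 with their mean, 0.036 with the replicate block and 0.093 at 1 length per locus. Alas1 for induction ranged from -0.15 to 0.081. The cause was not tested, beyond what each alternative's construction gives.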

Other observations

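The heme replicate 2 column was used only in alternative runs, not in the main comparisons. It lists locus sums of 78.1 FPKM for Hmox1, 8.75 for Blvrb, 8.08 for Alas1, 14.4 for Alad, 17.7 for Fech and 46.3 for Abcg2. These are 1.26-fold (Hmox1) to 1.42-fold (Alad) the replicate 1 values. Shares within a locus barely move between the columns: MSTRG.19925.2 holds 79.7% of Hmox1 in replicate 2, and the downstream Blvrb start is listed at 0 in both.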
